A study of Mus musculus with 19 samples.

Results

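The receptors for the cytokines BAFF and APRIL, with 3 other surface receptors tied to B cell help and plasma cell survival, were followed through B cell differentiation. The genes were chosen by name: Tnfrsf13b, Tnfrsf13c, Tnfrsf17, Sdc1, Cd40 and Cd28, which are 6 of the 22101 genes listed in the deposited tables, and all 6 were listed in every table. RNA was sequenced from sorted cells of mice given sheep red blood cells into the peritoneum, with tissue taken on day 28, with 3 wild-type and 4 Pik3cg knockout mice in the series design. Pik3cg encodes the catalytic p110 gamma subunit of phosphoinositide 3-kinase.

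The 19 libraries form 6 groups, and every mouse had been immunized, so no group shows the unimmunized state. Germinal centre B cells, sorted from spleen as CD95+ GL7+, gave 3 libraries labelled wild type and 4 labelled Pik3cg knockout. Naive B cells, sorted from spleen as CD3- B220+ IgD+, gave 3 libraries of each label. Antibody-secreting cells, sorted as CD138+, gave 3 libraries from spleen and 3 from bone marrow, all labelled wild type, so no genotype comparison of secreting cells was possible. For 9 libraries of naive and secreting cells the deposited header reads HET, while their label gives wild type, which is used here. No label ties a library to its own animal, so the p-values measure the spread between these samples, which may be technical. The labels name no cell-specific promoter or Cre driver for the knockout and no age.

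BAFF and APRIL are soluble members of the tumour necrosis factor family that keep B lineage cells alive. Tnfrsf13c encodes the BAFF receptor, which binds BAFF alone and sustains mature B cells; Tnfrsf13b encodes TACI and Tnfrsf17 encodes BCMA, which bind both cytokines, and BCMA is known as a survival receptor of long-lived plasma cells. Sdc1 encodes syndecan-1 (CD138), a heparan sulfate proteoglycan that concentrates APRIL at the plasma cell surface. Cd40 encodes the receptor through which T cells help B cells. Cd28 encodes a co-receptor best known on T cells and also described on plasma cells.

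Levels are given as deposited, as counts per 1000000 assigned reads (CPM). The libraries held an estimated 10.2 to 21.6 M reads (M, 1000000 reads). Immunoglobulin genes and Jchain took 3.72% to 4.16% of the reads in naive cells, 2.63% to 13.6% in germinal centre cells, 72.3% to 76.7% in spleen secreting cells and 77.99% to 83.6% in bone marrow secreting cells. Every other gene of a secreting cell is therefore compressed on the CPM scale, and levels were also computed per 1000000 reads outside these genes, called non-Ig CPM in what follows. Pik3cg RNA did not separate the labelled genotypes: it lay between 6.55 and 66.0 CPM in the germinal centre libraries labelled knockout and between 19.4 and 56.5 CPM in those labelled wild type, and at 94.98 to 127 CPM against 110 to 115 CPM in naive cells. Which exons were deleted is not known from the labels, so the check settles no label. In the germinal centre libraries labelled wild type, the germinal centre genes S1pr2, Rgs13 and Gcsam were at 0 in all 3, and the 7 germinal centre markers summed to 458 to 630 CPM, against 2670 to 3509 CPM in the 4 labelled knockout. The libraries labelled wild type also held more summed RNA of secreting cell genes other than Jchain. Prdm1, Xbp1, Irf4, Mzb1, Derl3 and Txndc5 together reached 4853 to 6530 CPM there and 1048 to 1504 CPM in those labelled knockout. They reached 1057 to 1165 CPM in naive cells and 6436 to 8071 CPM in spleen secreting cells. Jchain went the other way on average, at 3719 ± 1446 CPM (SD, n = 3) under the wild-type label and 7923 ± 3444 CPM (n = 4) under the knockout label. With Jchain the sums overlapped, at 6923 to 11305 CPM under the wild-type label and 3882 to 11925 CPM under the knockout label. The germinal centre genotype comparison therefore sets libraries of unlike marker content against each other, and wild type and knockout name labels throughout.

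The members lie apart in the genome (mm10, GENCODE M21): Tnfrsf13b at chr11:61126755-61149372, Tnfrsf13c at chr15:82221743-82224369, Tnfrsf17 at chr16:11313812-11320074, Sdc1 at chr12:8771323-8793715, Cd40 at chr2:165055627-165072948 and Cd28 at chr1:60716800-60773359. Tnfrsf13c is on the minus strand and the other 5 are on the plus strand. No exon of another annotated gene overlapped an exon of a member, so an unknown strand setting would not mix their exon reads with those of another annotated gene.

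Promoter sequence is shown for Tnfrsf13c and Tnfrsf17 because these cytokine receptors moved in opposite directions between naive and secreting cells on both scales. Each is the 250 bases before the RefSeq start site (GRCm38.p6), written 5′ to 3′ on the gene's strand. Tnfrsf13c lies on the minus strand, and its window is chr15:82224381-82224630. Tnfrsf17 lies on the plus strand, and its window is chr16:11313559-11313808. Neither window overlapped an exon of its own gene in GENCODE M21. Capitals mark matches to the motifs named after the sequences.
Tnfrsf13c: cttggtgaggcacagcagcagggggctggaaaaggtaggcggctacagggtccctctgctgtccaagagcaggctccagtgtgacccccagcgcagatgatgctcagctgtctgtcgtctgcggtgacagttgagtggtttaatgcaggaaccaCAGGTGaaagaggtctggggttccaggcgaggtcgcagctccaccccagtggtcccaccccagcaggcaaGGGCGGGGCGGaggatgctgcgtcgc
Tnfrsf17: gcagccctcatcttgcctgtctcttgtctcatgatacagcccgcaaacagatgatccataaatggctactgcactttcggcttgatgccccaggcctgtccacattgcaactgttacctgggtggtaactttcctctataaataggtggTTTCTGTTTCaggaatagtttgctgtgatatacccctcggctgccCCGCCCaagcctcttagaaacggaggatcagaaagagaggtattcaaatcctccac
The Tnfrsf13c window held the E-box CAGGTG, a sequence bound by E proteins, with its first base 96 bases before the start, and a pair of overlapping GC boxes (GGGCGG) that begin 26 and 21 bases before it. The Tnfrsf17 window held the tandem interferon regulatory factor motif, a pair of GAAA sequences with any 2 bases between them, on the other strand, 101 bases before the start, and 1 GC box on the other strand at 56 bases. Both strands of 32851 RefSeq windows of this length were searched: 17.22% held CAGGTG, 2.977% held the tandem motif and 32.74% held GGGCGG. The E-box and the tandem motif overlapped no other motif searched. The core element of XBP1 binding, GACGTG, was in neither window and in 5.202% of all windows. Simple forms of the EBF1, NF-kB and ETS-IRF motifs, in 0.7793%, 1.208% and 2.301% of all windows, were in neither. A match is a description of the letters only.

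Tnfrsf13c RNA was high in naive cells and low in secreting cells of both organs. It stood at 1035, 969 and 1173 CPM in the 3 naive libraries labelled wild type and at 1100, 1002 and 1167 CPM in those labelled knockout. Spleen secreting cells held 53.2, 79.1 and 50.5 CPM, and bone marrow secreting cells held 49.0, 58.8 and 60.5 CPM. Every naive library was above every secreting library. The mean in wild-type naive cells, 1059 ± 104 CPM (SD, n = 3), was 17.4-fold that of spleen and 18.9-fold that of bone marrow secreting cells. In non-Ig CPM the ratios were 4.61 and 3.61, with naive cells at 1103 ± 108, spleen at 239 ± 86.7 and bone marrow at 305 ± 45.9 (SD, n = 3). The fall passed the test on both scales (limma, log2 fold change -4.12 and -2.25 in spleen, -4.22 and -1.86 in bone marrow; highest adjusted p = 3.38e-05).

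In CPM the germinal centre libraries lay between these groups and differed by label. The 3 libraries labelled wild type held 292, 158 and 109 CPM of Tnfrsf13c, and the 4 labelled knockout held 693, 653, 544 and 698 CPM, with no overlap. These levels come from a separate deposited table, so their place beside the naive and secreting levels is a description. In non-Ig CPM the libraries labelled wild type, at 314, 183 and 127, overlapped the secreting libraries (182 to 358), and those labelled knockout stayed between them and the naive ones, at 588 to 762.

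Tnfrsf17 showed the opposite pattern. It was at 0 in all 6 naive libraries. It reached 149, 80.1 and 136 CPM in spleen secreting cells and 52.4, 64.1 and 70.7 CPM in bone marrow secreting cells. All 6 secreting libraries were above every other library. Against a floor of 3 reads per library in naive cells, the mean level was at least 486-fold higher in spleen and at least 249.5-fold higher in bone marrow secreting cells. In germinal centre cells the gene was at 0, 7.84 and 0.10 CPM under the wild-type label and at 0, 19.9, 32.2 and 10.3 CPM under the knockout label, so 1 library of each label had no Tnfrsf17 read.

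Tnfrsf13b, the gene of TACI, was the member whose direction depended on the scale. Naive cells labelled wild type held 901, 841 and 1009 CPM, those labelled knockout 857, 1113 and 1055 CPM, spleen secreting cells 494, 443 and 446.7 CPM, and bone marrow secreting cells 495, 401 and 419 CPM. In CPM every secreting library was below every naive library, and the gene fell (log2 fold change -0.99 ± 0.16 (SE) in spleen, adjusted p = 6.19e-05; -1.07 ± 0.16 in bone marrow, adjusted p = 2.49e-05; limma). In non-Ig CPM the order turned: spleen secreting cells had 1780 ± 149 (1614 to 1900) and bone marrow secreting cells 2400 ± 479 (1902 to 2857), against 955 ± 88.7 in wild-type naive cells (SD, n = 3). There the gene rose by 0.90 and 1.31 on the log2 scale, with limma adjusted p = 0.00132 and 7.80e-05. The median gene of the same fits moved by -1.95 and -2.31 in CPM and by -0.09 and -0.01 in non-Ig CPM. On both scales Tnfrsf13b thus lay above the median gene of secreting cells.

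**Figure D1:**
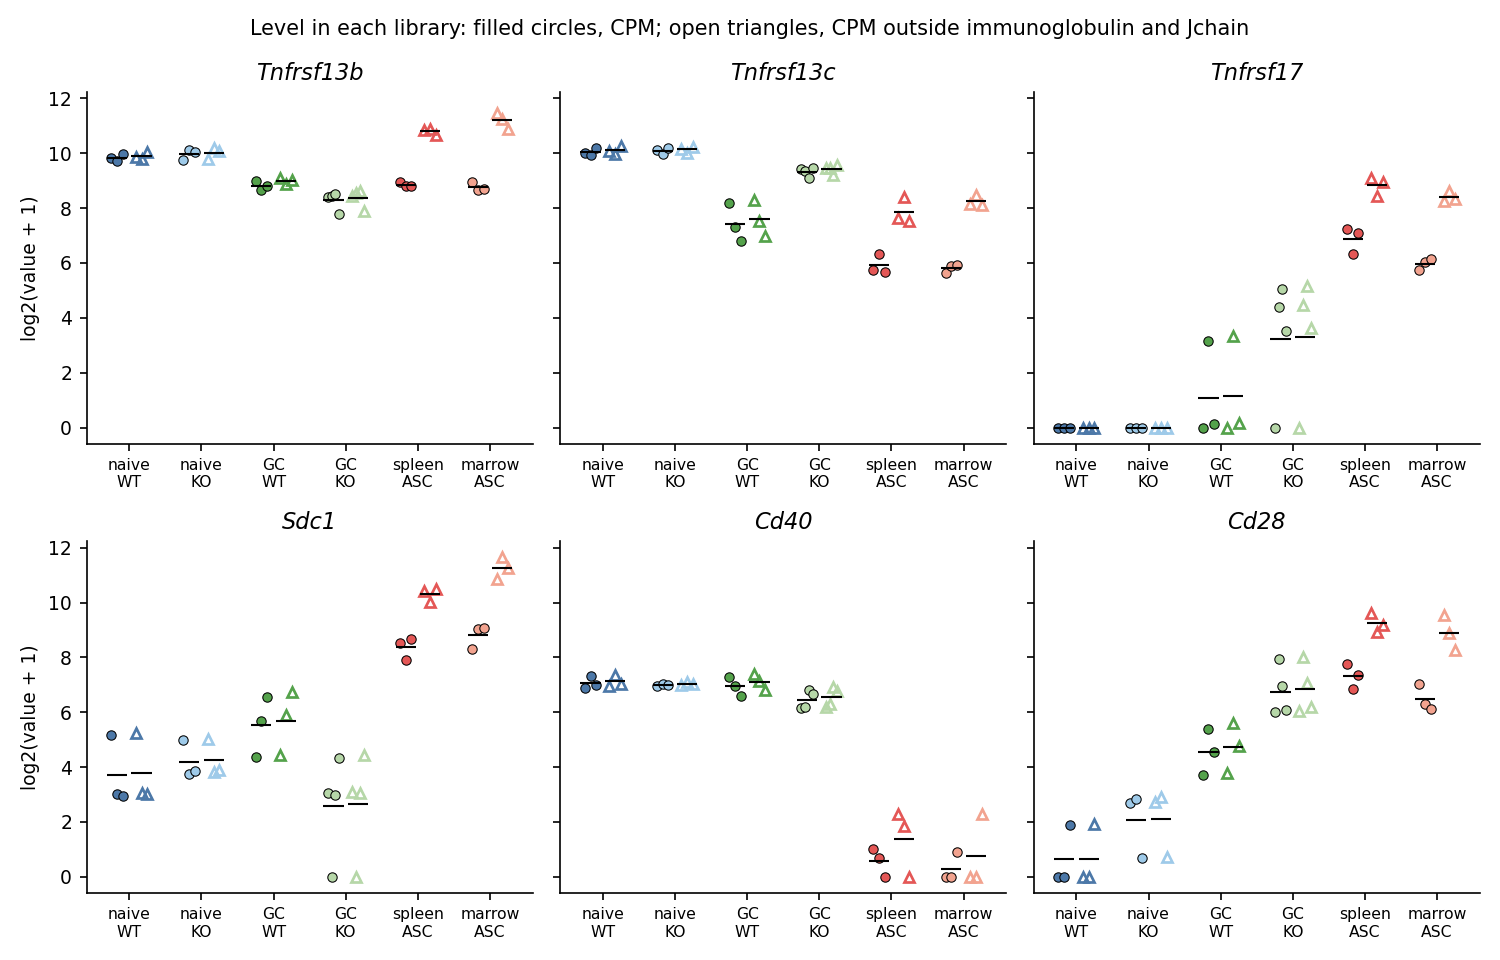
Level of each gene in each of the 19 libraries, on a log2(value + 1) axis, as CPM (filled circles) and per 1000000 reads outside immunoglobulin and Jchain (open triangles); bars are group means of the plotted values, WT and KO are the labelled genotypes, GC is germinal centre and ASC antibody-secreting cells. Tnfrsf13c and Cd40 are high in naive and low in secreting cells on both scales, Tnfrsf17 is at 0 in naive cells, and Tnfrsf13b in secreting cells lies below the naive libraries in CPM and above them on the other scale.

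A mixture of the 3 cytokine receptors within one library does not depend on the immunoglobulin share. Levels per kilobase of merged GENCODE M21 exon were summed over Tnfrsf13b, Tnfrsf13c and Tnfrsf17, and each gene's share was taken. In wild-type naive cells Tnfrsf13c made up 61.5% ± 0.14 and Tnfrsf13b 38.5% ± 0.14 of the sum (SD, n = 3). In spleen secreting cells the shares were 9.01% ± 3.61 for Tnfrsf13c, 48.0% ± 4.61 for Tnfrsf13b and 43.0% ± 8.21 for Tnfrsf17. In bone marrow secreting cells they were 10.6% ± 1.32, 59.7% ± 5.80 and 29.7% ± 4.52 in the same order of genes. The Tnfrsf17 share was 33.5% to 47.8% in spleen and 24.5% to 32.9% in bone marrow, ranges that do not overlap. In germinal centre cells Tnfrsf13c held 34.5% ± 9.56 (n = 3) under the wild-type label and 70.7% ± 7.56 (n = 4) under the knockout label. Its share was higher in every library labelled knockout, at 61.4% to 79.1% against 25.3% to 44.3%. These shares are descriptions, chosen after the levels were seen, and carry no test.

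**Figure D2:**
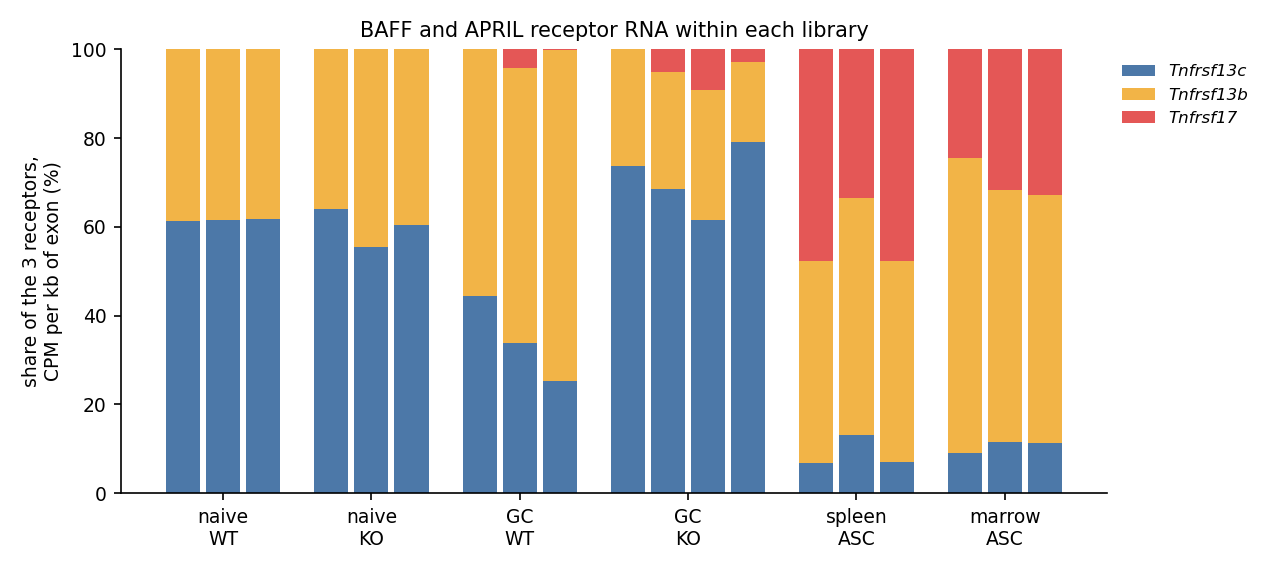
Share of Tnfrsf13c, Tnfrsf13b and Tnfrsf17 in their summed CPM per kilobase of exon, in percent, with 1 bar per library in 6 groups (WT and KO are labelled genotypes, GC germinal centre, ASC antibody-secreting cells). The Tnfrsf13c share is between 55.5% and 64.0% in naive libraries and between 6.78% and 13.2% in secreting libraries, where Tnfrsf17 takes 24.5% to 47.8%.

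Sdc1 was the sorting marker of the secreting cells, so its height there reflects the gate and is given as a check. It reached 371, 239 and 404 CPM in spleen and 318.96, 529 and 540 CPM in bone marrow secreting cells. Naive libraries held 6.77 to 35.1 CPM, and no naive library came near a secreting one. The level was 20.7-fold and 28.4-fold that of wild-type naive cells, in spleen and bone marrow. Naive library 1 labelled wild type, at 35.1 CPM against 7.11 and 6.77 CPM, weighs on these folds: without it the log2 difference went from 4.65 to 5.38 in spleen and from 5.10 to 5.83 in bone marrow.

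Cd40 was nearly absent from secreting cells. Naive libraries labelled wild type held 118, 158 and 126 CPM, and those labelled knockout 123, 130 and 125 CPM. The spleen secreting libraries held 1.04, 0.61 and 0 CPM, and the bone marrow ones 0, 0 and 0.85 CPM. The naive mean was 244-fold that of spleen and 471-fold that of bone marrow secreting cells, and 64.9-fold and 108-fold in non-Ig CPM. These ratios rest on few reads in secreting cells, where 3 of 6 libraries had none. Cd40 fell on both scales (limma, log2 fold change -6.49 and -5.75 in spleen, -6.77 and -6.36 in bone marrow; highest adjusted p = 3.66e-05). Germinal centre cells held 155, 122 and 95.3 CPM under the wild-type label and 70.7, 72.8, 111 and 100 CPM under the knockout label, of which 2 of 7 lay within the naive range and the other 5 under it.

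Cd28 rose in secreting cells. Naive libraries labelled wild type were at 0, 0 and 2.73 CPM, and those labelled knockout at 5.47, 6.19 and 0.63 CPM. Spleen secreting cells held 214, 114 and 162 CPM and bone marrow secreting cells 129, 77.7 and 67.6 CPM. All secreting libraries lay above all naive ones, with log2 fold changes of 6.68 in spleen and 5.84 in bone marrow (limma, adjusted p = 5.58e-07 and 1.22e-06), or 8.61 and 8.25 in non-Ig CPM. In the same libraries 13 T cell markers were summed, Cd28 not among them. The sum was 13.9 to 31.5 CPM in spleen and 3.49 to 13.9 CPM in bone marrow secreting cells. In non-Ig CPM that sum was 59.5 to 114 in spleen, overlapping the 81.3 to 125 of naive cells, and 21.2 to 63.0 in bone marrow. Of the 13 markers, only Cd3e and Icos were at 0 in every spleen secreting library. In bone marrow Cd3e, Icos, Trbc1, Trbc2, Cd8a and Cd8b1 were at 0 in every secreting library. Per 100 CPM of these 13 markers there were 513 to 823 CPM of Cd28 in spleen and 488 to 2228 CPM in bone marrow. In naive cells, where the markers summed to 78.2 to 120 CPM, Cd28 stayed at or below 6.19 CPM.

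**Figure D3:**
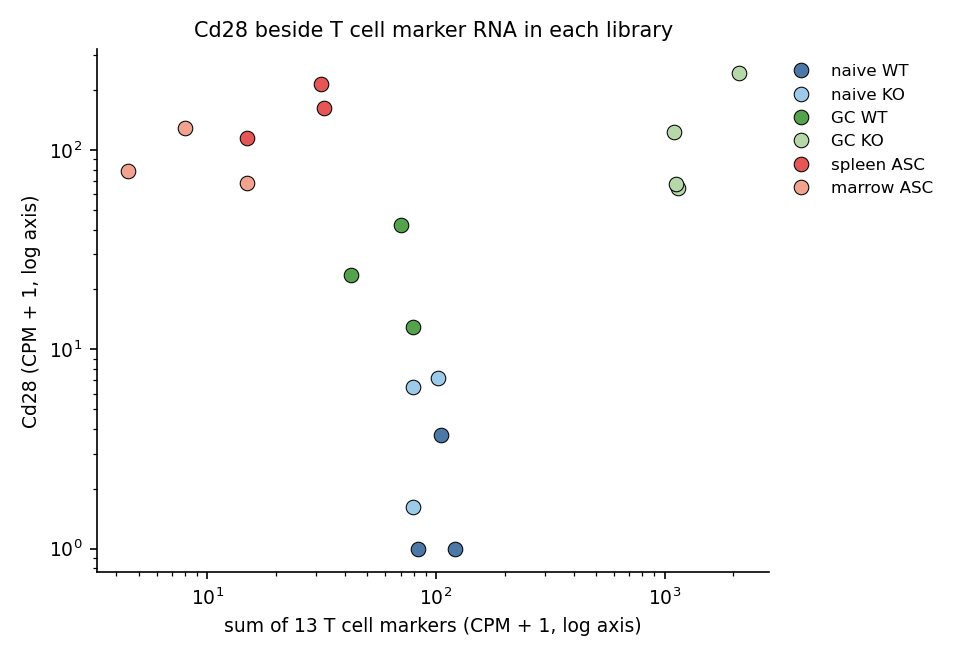
Cd28 against the summed level of 13 T cell markers in each of the 19 libraries, both as CPM + 1 on log axes, coloured by group (WT and KO are labelled genotypes, GC germinal centre, ASC antibody-secreting cells). Secreting cells combine 67.6 to 214 CPM of Cd28 with at most 31.5 CPM of T cell markers, while the germinal centre libraries labelled knockout hold 1102 CPM or more of T cell markers.

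All 6 genes thus passed the test between wild-type naive cells and the secreting cells of either organ, and in CPM the groups of all 6 did not overlap, which held for 89.2% of genes tested in spleen and 91.8% in bone marrow. In CPM 3 rose (Tnfrsf17, Cd28 and, by its gate, Sdc1) and 3 fell (Tnfrsf13b, Tnfrsf13c, Cd40) in each organ. Tnfrsf17 and Cd28 passed the filter of 10 CPM only through the secreting libraries, so the filter could keep them only with a rise. Of all genes tested in that fit, 88.6% were called in spleen, 5.35% as higher and 83.3% as lower, and 93.1% in bone marrow, 4.05% as higher and 89.0% as lower. A fall in CPM was therefore the rule and a rise the exception. In non-Ig CPM 4 genes rose and 2 fell in each organ, against 33.9% of genes called in spleen (17.7% higher, 16.1% lower) and 34.4% in bone marrow (18.4% higher, 16.0% lower). The median log2 fold change of the 6 was 1.83 in spleen and 2.02 in bone marrow in CPM. This median is the midpoint of Tnfrsf13b and of Sdc1, the sorting marker, so it depends on the gate. Setting Tnfrsf17 at its bound could not move it. Naive, spleen and bone marrow cells were deposited in separate tables, so table and cell type cannot be told apart, and both contrasts share the naive libraries. In bulk RNA, fewer cells of a kind and less RNA per cell cannot be told apart either.

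**Figure D4:**
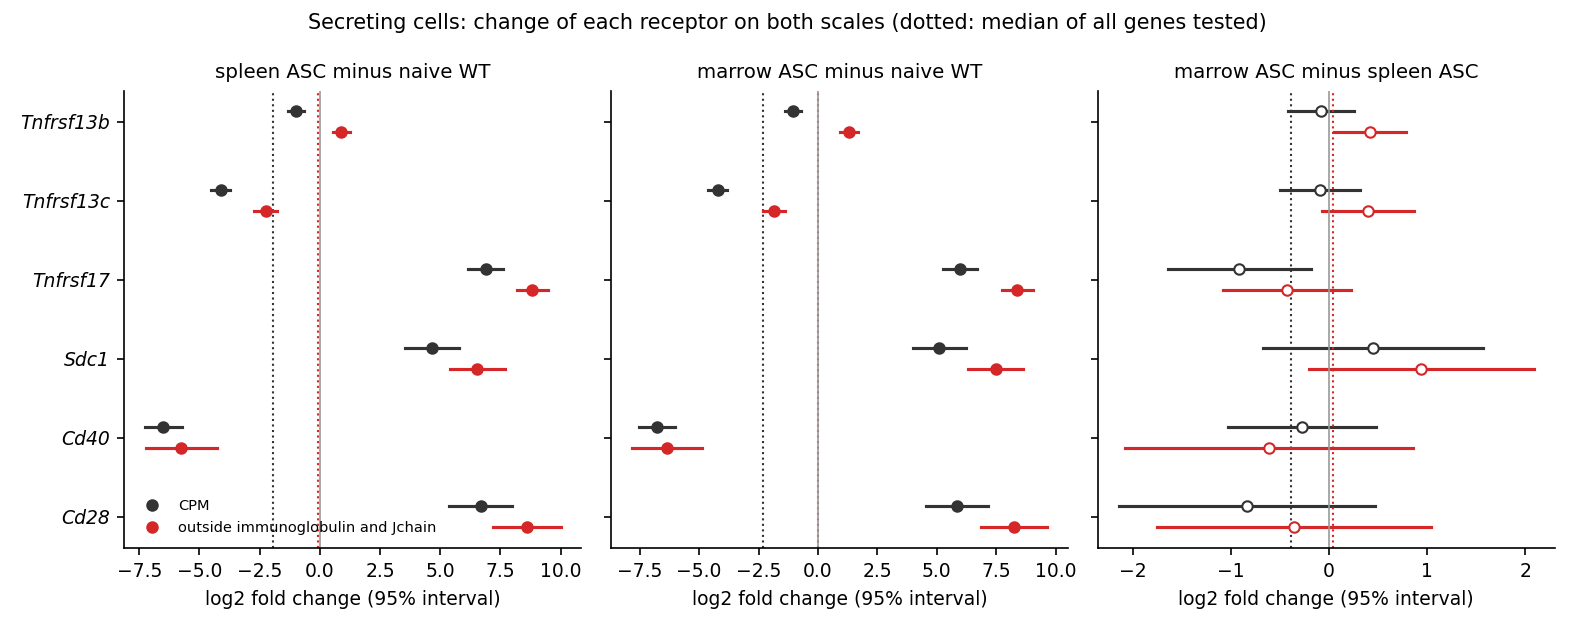
Log2 fold change of each gene with its 95% interval (limma) in 3 comparisons of antibody-secreting cells (ASC), in CPM (black) and non-Ig CPM (red); filled points have an adjusted p under 0.05 and dotted lines mark the median of all genes tested. Tnfrsf13b lies at -0.99 and -1.07 in black and at 0.90 and 1.31 in red against naive cells, and no gene is called between the organs.

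Between bone marrow and spleen secreting cells no member passed the test on either scale, against 7.34% of genes called in CPM and 0.987% in non-Ig CPM (limma; 1 member, Tnfrsf17, had an unadjusted p under 0.05 in CPM and 1, Tnfrsf13b, in non-Ig CPM). Tnfrsf17 was lower in all 3 bone marrow libraries than in any spleen library, with a log2 difference of -0.91 (95% interval -1.64 to -0.18; limma adjusted p = 0.118). It was the only 1 of the 6 whose groups did not overlap in CPM, against 22.9% of all genes. In non-Ig CPM the Tnfrsf17 ranges overlapped and the difference was -0.43 (-1.08 to 0.22), while Tnfrsf13b and Sdc1 did not overlap, against 14.9% of genes. With a pseudocount of 5 CPM the Tnfrsf17 adjusted p was 0.0471, and over all alternatives it ran from 0.0471 to 0.544. Tnfrsf13b differed by -0.08 (-0.41 to 0.26) in CPM and 0.41 (0.05 to 0.78) on the other scale, and Tnfrsf13c by -0.09 (-0.50 to 0.31) and 0.40 (-0.07 to 0.87). The intervals were wider for Sdc1, at 0.45 (-0.67 to 1.57), and for Cd28, at -0.84 (-2.14 to 0.47). Cd40 gave -0.27 (-1.03 to 0.48) near its limit of detection. The 8 neutrophil markers summed to 55.8 to 275.03 CPM in bone marrow and 0.06 to 26.0 CPM in spleen secreting cells (322 to 1674 and 0.22 to 112 in non-Ig CPM), and their part in any organ difference was not tested. With same-numbered spleen and bone marrow libraries paired, 1010 genes were called in place of 558, and still no member. The count of called genes also moved from 558 to 151 without spleen library 3, to 265 without spleen library 1, to 325 without bone marrow library 2 and to 1432 without bone marrow library 3.

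In germinal centre B cells 2 of the 6 genes rose under the knockout label, Tnfrsf13c and Cd28, and none fell. Of all genes tested 13.6% were called, 8.54% as higher and 5.09% as lower, and in non-Ig CPM, where the same 2 were called, 12.8%. The groups of 4 of the 6 did not overlap, against 27.4% of all genes. Tnfrsf13c, at the levels given above, was 3.47-fold higher under the knockout label (647 ± 71.5 CPM, n = 4, against 186 ± 94.3 CPM, n = 3), with a limma adjusted p of 0.00338 for a log2 change of 1.90 ± 0.29 (SE). It remained called without any one library and under each other scaling, pseudocount and filter tried, at 1.58 to 2.28. RNA of other cells differed too: erythroid markers summed to 29.7 to 2977 CPM under the knockout label and 0.05 to 2.41 CPM under the wild-type label, and monocyte and macrophage markers to 145 to 1406 CPM and 77.1 to 202 CPM, with 3 of 8 tested higher. Without knockout libraries 1 and 2, chosen after seeing the data for their haemoglobin and T cell RNA, the Tnfrsf13c change was 1.84 (limma adjusted p = 0.0360). The part of the unlike marker content in the difference was not tested.

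Cd28 was the other called member. It was at 12.0, 41.4 and 22.6 CPM under the wild-type label and at 63.7, 243, 123 and 66.3 CPM under the knockout label, without overlap. On the log2 scale it rose by 2.19 ± 0.56 (SE), with a limma adjusted p of 0.0322. The call was lost without knockout library 2 (adjusted p = 0.0564) or 3 (0.0705), without wild-type library 1 (0.110) or 3 (0.0936), and with no filter on low genes (0.0699); over all alternatives the adjusted p ran from 0.00922 to 0.110. T cell markers moved in the same direction. They summed to 41.6 to 78.2 CPM under the wild-type label, where 8 of 13 including Cd3d, Cd3e, Cd3g and Cd4 were at 0 in all libraries, and to 1102 to 2107 CPM under the knockout label, with 10 of 11 tested markers higher. Knockout library 2 had the highest value of both Cd28 and the T cell sum. Per 100 CPM of these markers there were 15.3 to 59.9 CPM of Cd28 under the wild-type label and 5.57 to 11.5 CPM under the knockout label. Without the same pair of libraries the Cd28 change was 1.96 (limma adjusted p = 0.0899). The part of T cell RNA in the Cd28 difference was not tested.

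The other 4 members were not called. Tnfrsf13b was at 507, 402 and 448 CPM under the wild-type label and lower in every library labelled knockout, at 341, 348, 361 and 219 CPM (log2 fold change -0.53, 95% interval -0.98 to -0.08; limma adjusted p = 0.118). Sdc1 was at 19.4, 50.3 and 92.4 CPM under the wild-type label and at 7.25, 0, 6.86 and 18.96 CPM under the knockout label, again without overlap (-2.94, -5.29 to -0.60; adjusted p = 0.0974). Among the secreting cell markers, whose sum without Jchain is given above, 4 of 7 fell and none rose. Cd40 overlapped between the labels (-0.48, -1.08 to 0.11), as did Tnfrsf17 (2.14, -1.09 to 5.37), whose mean over the 7 libraries was barely above the filter of 10 CPM. Missing the threshold does not show that the labels are alike for these 4 genes.

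**Figure D5:**
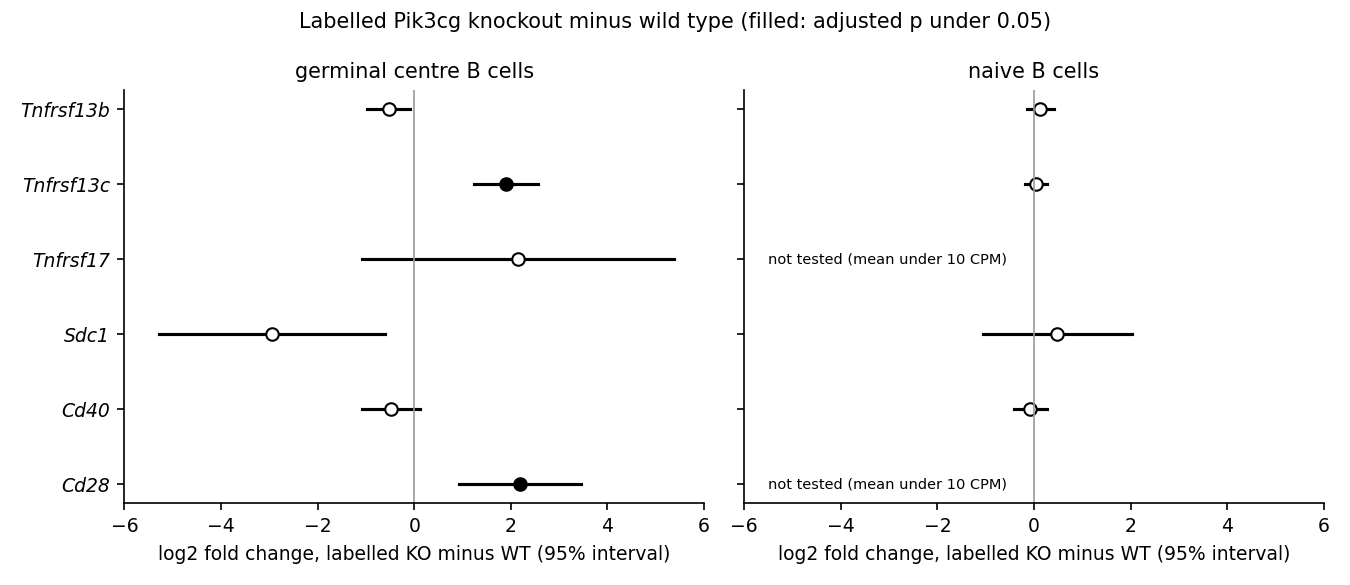
Log2 fold change of each gene between libraries labelled Pik3cg knockout and wild type, with its 95% interval (limma), in germinal centre and naive B cells; filled points have an adjusted p under 0.05. Tnfrsf13c (1.90) and Cd28 (2.19) are called in germinal centre cells, and the 4 genes tested in naive cells lie between -0.08 and 0.48.

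Naive cells showed no called difference by label. Of the 6 members 4 passed the filter of 10 CPM and none was called, where 0.0% of 8832 genes were called (limma; 587 at an unadjusted p under 0.05). Tnfrsf13c differed by 0.04 (95% interval -0.18 to 0.27), Tnfrsf13b by 0.13 (-0.14 to 0.41) and Cd40 by -0.08 (-0.41 to 0.26) on the log2 scale. Sdc1 differed by 0.48 with a wide interval (-1.06 to 2.02). Tnfrsf17 was at 0 in both groups, and Cd28 was under the filter. No tested member's groups were apart, against 13.6% of all genes. The difference between the germinal centre and naive genotype effects was tested directly: it was called for Tnfrsf13c, at 1.86 (limma adjusted p = 0.00674), and for none of the other 4 members tested, against 7.83% of all genes. For Cd28 that difference was 0.74 (95% interval -1.58 to 3.06). The part of the unlike marker content of the germinal centre libraries in these differences was not tested.

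Partners of these receptors were followed in a list of 70 genes, chosen with earlier results known. Of the cytokines, Tnfsf13b, the gene of BAFF, was at 0 in naive cells and at 0 to 2.03 CPM in secreting cells. It was not among the genes listed for germinal centre cells. Tnfsf13, the gene of APRIL, was at 0 in germinal centre libraries labelled wild type and at 0 to 9.48 CPM in those labelled knockout. Tnfsf13 and Cd40lg were not among the genes listed for naive and secreting cells. In germinal centre cells 45 were tested, of which 5 rose and 8 fell under the knockout label (8.54% and 5.09% of all genes did), with a median log2 fold change of -0.32 against 0.03 for all genes. The genes that rose were Cd86 (2.01), a ligand of CD28, Cd40lg (3.84), the ligand of CD40, the adaptor Traf5 (4.76), and the receptors Cd27 (6.21) and Tnfrsf4 (5.19). Cd40lg was at 0 in the libraries labelled wild type and passed the filter of 10 CPM only through those labelled knockout. It could therefore be called only as a rise, and the same limit may hold for Cd27 and Tnfrsf4. Cd40lg, Cd27 and Tnfrsf4 are also expressed by T cells, whose markers are given above. The NF-kB genes that fell were Nfkb2 (-2.30), which encodes the p100 precursor of the non-canonical pathway that BAFF receptor and CD40 feed, and the inhibitors Tnfaip3 (-1.78), Nfkbie (-1.40) and Nfkbia (-1.06). Among survival regulators the anti-apoptotic Bcl2l1 (-4.11) and Bcl2a1d (-0.93) and the pro-apoptotic Bcl2l11 (-3.93) fell, as did the syndecan Sdc4 (-2.39). None of 47 list genes tested was called in naive cells, where the median was 0.09 against -0.01 for all genes.

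In secreting cells the same list fell with most genes in CPM. In spleen 37 of 43 tested were lower and 1 higher, against 83.3% and 5.35% of all genes. In bone marrow 40 were lower and none higher, against 89.0% and 4.05% of all genes. The medians of the list were -2.45 in spleen and -2.80 in bone marrow, against -1.95 and -2.31 for all genes. In non-Ig CPM 48 were tested, with 10 higher and 15 lower in spleen, and 8 higher and 13 lower in bone marrow, against 17.7% and 16.1% of all genes in spleen and 18.4% and 16.0% in bone marrow. The medians on that scale were -0.44 and -0.38, against -0.09 and -0.01 for all genes. Genes that fell in both organs on both scales included Icosl, a ligand of ICOS, Cd86, the adaptors Traf5 and Grb2, Birc3, and the NF-kB genes Rel, Nfkb1 and Ikbkb. Traf5, for example, went from 114 CPM in wild-type naive cells to 5.15 CPM in spleen and 1.82 CPM in bone marrow secreting cells. Bcl2a1b and Bcl2a1d, anti-apoptotic members of the Bcl2 family, fell as well; they are near-identical copies, so how their reads were split is uncertain. Higher in non-Ig CPM in both organs were Bcl2l1 (4.29 and 3.96 in spleen and bone marrow), the survival kinase gene Pim2 (2.79 and 2.51), and Nfkbia (1.26 and 1.33), genes named here after their values were seen.

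Bcl2l11 differed between the organs, whose neutrophil marker sums are given above. It held 27.0 CPM on average in spleen and 0.943 CPM in bone marrow secreting cells, a log2 difference of -3.98 in CPM (limma adjusted p = 0.00147) and -4.68 in non-Ig CPM (adjusted p = 0.0106). Bcl2l11 encodes BIM, a pro-apoptotic protein. In CPM 4 of 43 list genes were called between the organs, all lower in bone marrow, where 7.34% of all genes were called and 547 of those 558 were lower: Bcl2l11, Cd86 (-1.53), Traf5 (-1.13) and Mcl1 (-0.79), the last an anti-apoptotic gene. In non-Ig CPM Bcl2l11 was lower and Sdc4 higher (1.25; adjusted p = 0.0298), and no other of 48, against 0.987% of all genes.

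The genes whose profile was most like each member were found by Pearson correlation of log2(CPM + 1) over the 19 libraries, among 6973 genes. The libraries fall into 6 sorted groups, so the 19 values are not independent, and no p is given. Tnfrsf13c was nearest to Lmo2 (r = 0.98), Cr2 (0.98) and Bank1 (0.98), and Tnfrsf17 to Jchain (0.94), Trp53inp1 (0.93) and Fut8 (0.87). Sdc1 was nearest to Bhlha15 (0.90), Hid1 (0.89) and Slc39a11 (0.88), and Cd28 to H1f0 (0.94), Ube2j1 (0.93) and Tigit (0.93). For Tnfrsf13b the nearest were Shisa5 (0.93), Acot10 (0.93) and Iqsec1 (0.93), and for Cd40 they were Grcc10 (0.99), Eef1g (0.99) and Arl6ip1 (0.99). On the non-Ig scale the nearest genes were others for Tnfrsf13c (Smim14, Plaur, Dazap2) and Cd40 (Lrrk2, Sh3bgrl3, Cd72). For Tnfrsf17 Jchain was again the first.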

How the data were processed

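The authors deposited RNA-seq of sorted cells as 4 tables of CPM, with a column sum of 1000000 in each library. Reads were aligned with STAR to mm10, per the submitters' processing notes (versions, counter, annotation, strand: not given in the sources used here). The germinal centre table had 0.0001 added to each value, which was subtracted. Of the gene names, 19 turned into dates were left out. Depth came from the smallest step between CPM values, so depths, read counts and read floors are estimates. Values within 0.02 of a whole read made up 61.4% to 67.8% in germinal centre libraries and 85.2% to 88.8% in the others. The estimates are therefore less sure for germinal centre libraries. A gene was tested if its mean over the libraries of a fit reached 10 CPM, with limma 3.58.1 (trend, R 4.3.3) on log2(CPM + 1), a scale that understates the change of low genes; calls have a Benjamini-Hochberg adjusted p under 0.05. The naive and secreting tables list the same genes and were fitted together. Values per 1000000 reads outside genes of immunoglobulin biotype and Jchain, median-of-ratios scaling, pseudocounts of 0.1 and 5, filters, weights, blocks and left-out libraries were alternatives. Floors and counts cover counting error only. The script was tested on simulated data.

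The members and lists were chosen with earlier results of these data known. Named genes are the 6 members, up to 3 called genes with the largest change from each pathway list and comparison (or, with none called, the smallest p), and the 3 genes most correlated with each member. Same-numbered spleen and bone marrow secreting libraries deviated together (r = 0.163, 0.234 and 0.243, each highest with its own number). The labels do not say what a shared number stands for, so the pairing was used in an alternative and the main fit is unpaired. In no other pair of groups were all correlations over 0.1. Some results of the marker lists and of the correlated genes are not reported here.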

Additional observations from a re-analysis of the deposited data

Results flagged for a closer look

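Tnfrsf13b in germinal centre library 4 labelled knockout, at 219 CPM, stood apart from the other 3 of its group (341 to 361 CPM): the gap to its nearest neighbour was 0.86 of the group's range. Of 12 groups of values examined this way, each gene on both scales, chance marks about 1 in 20. In non-Ig CPM the library held 239, against 350 to 390 in the others, and was not flagged. Without that library the log2 fold change was -0.36, against -0.53.

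The labelled genotype effect on Tnfrsf13c differed between germinal centre and naive B cells by 1.86 on the log2 scale (interaction term, limma adjusted p = 0.00674). The germinal centre libraries of the labels were of unlike marker content, as given above, and its part in this difference was not tested. Germinal centre and naive cells also came from separate deposited tables.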

How the results depend on the processing

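The count of called members in germinal centre cells went from 2 to 1, through Cd28, with no filter and without knockout libraries 1 and 2 together, and was 1 to 2 when single libraries were left out. Called genes there ranged from 603 to 1134 without single libraries, lowest without wild-type library 2 (732 and 712 without libraries 1 and 3). Against naive cells, spleen secreting cells had 6743 called genes, 3189 outside immunoglobulin and Jchain and 2804 with median-of-ratios scaling; bone marrow had 7080, 3241 and 2832, and 10855 with no filter. Between the organs 558 became 93 and 106 under those scalings, 1010 with the replicate block, 53 in a fit of the 2 groups alone, 95 outside immunoglobulin with a pseudocount of 3 (added after seeing the data), and 151 to 1432 without single libraries; at a pseudocount of 5 CPM 1 member was called. The block changed no member's call. In germinal centre cells 825 genes were called with it, though same-numbered libraries there deviated together little (r = 0.079, 0.00057 and 0.0078).

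Directions turned as follows. Tnfrsf13b was 0.90 and 0.92 (outside immunoglobulin and Jchain, and median-of-ratios) in spleen, 1.31 and 1.24 in bone marrow, and 0.41, 0.32 and 0.41 between organs, the last with the pseudocount of 3. Tnfrsf13c between organs was 0.40, 0.30 and 0.39 in the same order, and -0.21 to 0.11 without single libraries, above 0 without spleen library 2 or bone marrow library 1. Without single naive libraries Tnfrsf13c was -0.0188 to 0.119 by label, below 0 without wild-type library 2 or knockout library 3, and Cd40 was -0.159 to 0.0485, above 0 without wild-type library 2. Ext2 was 0.0470 and 0.0711 in spleen, 0.0678 and 0.0033 in bone marrow. The Cd28 interaction was -1.03 at a pseudocount of 0.1. The causes were not tested. Depth limits Cd40 in secreting cells and Cd28 and Tnfrsf17 in naive cells, which are at or near 0.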
